A study of Mus musculus with 6 samples.

Results

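The Cyp2c subfamily holds cytochrome P450 enzymes that mouse hepatocytes express at high levels, and 10 of its genes were followed here: Cyp2c29, Cyp2c37, Cyp2c38, Cyp2c39, Cyp2c40, Cyp2c44, Cyp2c50, Cyp2c54, Cyp2c55 and Cyp2c70. They were chosen by name from the 55357 genes of the liver count table, which holds 20 Cyp2c genes and pseudogenes in all. Cyp2c44 carries the symbol Cyp2c23 in the gene annotation and was matched through its synonym. Total RNA of liver was sequenced from wild-type male C57BL6/J mice aged 8 to 9 weeks. All mice were gavaged for 7 days, with a control diet (10% of kcal from fat) for 4 days followed by a high-fat diet (HFD, 60% of kcal from fat) for 3 days. The vehicle group received 2.5% Tween-80 and the esculetin group received esculetin, a coumarin derivative, in place of vehicle alone. Sample names give the dose as 180 mg/kg/d and the treatment field gives 90 mg/kg/d, so the treated libraries are called the esculetin group. Each group had 3 libraries and each library pooled 2 mice, so that values are averages over pooled animals, and no group without HFD enters the comparison.

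Cytochrome P450 enzymes of the endoplasmic reticulum insert oxygen into their substrates with electrons passed on by cytochrome P450 reductase (Por) and, for some reactions, cytochrome b5 (Cyb5a). Cyp2c enzymes oxidize drugs, steroids and fatty acids, and several of them convert arachidonic acid into epoxides that epoxide hydrolases open. In liver their genes are regulated by the xenobiotic receptors CAR (Nr1i3) and PXR (Nr1i2), by hepatocyte factors such as Hnf4a and C/EBP, and by growth hormone signalling. Cyp2c29, Cyp2c37, Cyp2c50 and Cyp2c54 are expressed mainly by hepatocytes around the central vein.

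Totals ranged from 27957713 to 34920922 counts per library, and the TMM factors (trimmed mean of M-values scaling) from 0.979 to 1.02. Values below are TMM-normalized CPM, the count relative to the scaled size of its library, unless stated. A gene was called where edgeR's quasi-likelihood test gave an unadjusted p under 0.05 with a fold change over 1.5, and the Benjamini-Hochberg adjusted p over all 14433 genes tested is given beside it. Nothing in the labels says that libraries of a group come from separate experiments, so p-values measure the spread between these pools. In bulk liver, fewer cells of a type and less RNA per cell cannot be told apart. Hepatocyte genes summed to 77069 to 80173 CPM in vehicle and 73519 to 80525 CPM in esculetin libraries. Most of this was Alb, at 58958 to 61206 and 54311 to 61150 CPM. None of the 6 was called, and Serpina1c (log2 fold change 0.52, edgeR adjusted p = 0.132) and Cps1 (0.14, adjusted p = 0.568) had the smallest p.

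All 10 members passed the filter on low counts, and 1 of them was called, Cyp2c55, which was lower with esculetin. Over all genes tested 3.13% were called, 1.37% higher and 1.76% lower. No member had an adjusted p under 0.05 in edgeR's quasi-likelihood test, a mark that 0.0416% of all genes reached, nor in DESeq2 or limma-voom. In edgeR without the filter on low counts, Cyp2c37, Cyp2c38, Cyp2c54 and Cyp2c70 reached it, among 477 of 24638 genes. Without vehicle replicate 1, Cyp2c38 reached it, among 45 of 14788 genes. An unadjusted p under 0.05 was reached by 5 members, against 11.9% of all genes: Cyp2c37, Cyp2c50 and Cyp2c54 were higher with esculetin, and Cyp2c55 and Cyp2c70 were lower. In TMM-normalized CPM the groups did not overlap in 4 members (Cyp2c37, Cyp2c50, Cyp2c54 and Cyp2c55), against 17.4% of all genes. Without TMM scaling Cyp2c37 and Cyp2c50 overlapped. The fitted log2 fold change was positive in 7 members and negative in 3, with a median of 0.26 beside -0.01 over all genes. The count of 5 was 2 without vehicle replicate 2, esculetin replicate 1 or esculetin replicate 3, 3 without vehicle replicate 3 or esculetin replicate 2, 6 without vehicle replicate 1, and 8 without the filter on low counts. The median was 0.13 without vehicle replicate 3 and 0.22 to 0.38 with 1 of the other libraries left out.

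Of the members, 9 lie in a single cluster on chromosome 19. In GRCm39 the 1180 kb from Cyp2c55 to Cyp2c70 hold 14 protein-coding genes, all of them Cyp2c genes. Cyp2c37, Cyp2c54 and Cyp2c50 are neighbours at chr19:39980865-40102430, with no other protein-coding gene between them. Cyp2c44 lies apart, 3818 kb beyond Cyp2c70. By aligned coding sequence Cyp2c37 and Cyp2c50 were 96.1% identical, Cyp2c50 and Cyp2c54 95.3%, and Cyp2c37 and Cyp2c54 95.1%. Cyp2c38 and Cyp2c39 formed a second close pair at 94.2%, with Cyp2c29 at 89.5% to Cyp2c39. The closest relative of Cyp2c40 was Cyp2c68, which is no member, at 98.1%. Cyp2c55, Cyp2c70 and Cyp2c44 had no relative above 78.3%, 72.0% and 68.9% identity.

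**Figure D1:**
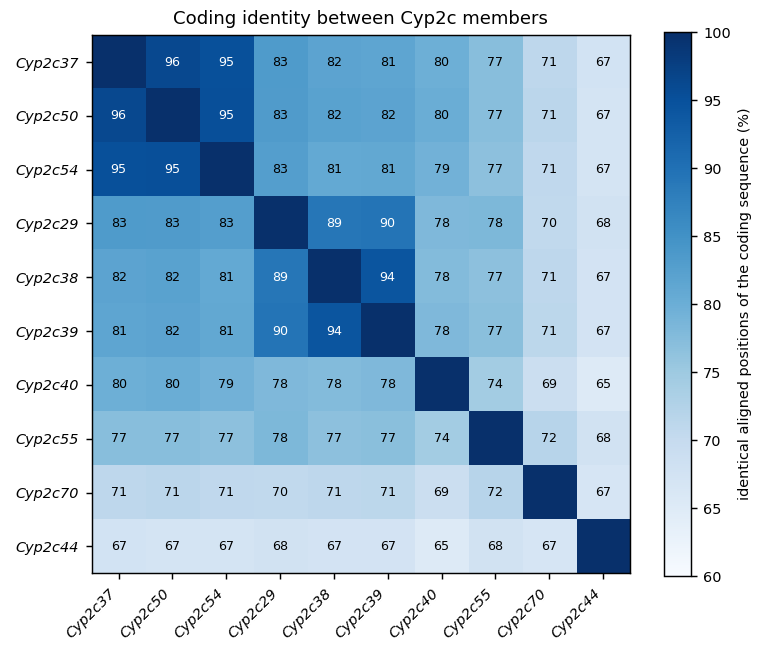
Percent of identical aligned coding positions between each pair of the 10 members (colour scale from 60 to 100%, values printed in the cells). Cyp2c37, Cyp2c50 and Cyp2c54 form 1 block above 95%, Cyp2c29, Cyp2c38 and Cyp2c39 a looser one from 89.2 to 94.2%, and Cyp2c70 and Cyp2c44 are the most distant.

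Close relatives share sequence that a read cannot place. Of the 150-base windows of its transcripts, Cyp2c40 shared 18.99% exactly with another Cyp2 gene, Cyp2c50 1.19%, Cyp2c54 0.995% and Cyp2c37 0.184%, and the other members shared none. How reads with several placements were counted is not given in the sources used here, so the values of Cyp2c40 are uncertain. Cyp2c29 shares 142 exon bases with the pseudogene Cyp2c53-ps on the same strand. Opposite-strand transcripts overlap 614 exon bases of Cyp2c44 and 64 of Cyp2c55, and whether the counting used strand is not stated.

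Promoters were read for 8 of the 10 members from RefSeq (GRCm38.p6) as the 250 bases before the transcript start, and each matched GRCm39 exactly once. Those of Cyp2c54 and Cyp2c44 were not read. They are shown for Cyp2c55, the called member, and, chosen after the values were seen, for Cyp2c37 and Cyp2c50, neighbours that were both higher, and Cyp2c70, the most abundant member and lower. Each is written 5′ to 3′ on the strand of its gene, and capitals mark a match to TATAAA, to TTGCNNAA (the C/EBP motif), to TTCNNNGAA (STAT5) or to AGGTCA (a nuclear receptor motif), searched on both strands. Cyp2c55 lies at chr19:38995213-38995462 (plus strand), Cyp2c37 at chr19:39980618-39980867 (plus), Cyp2c50 at chr19:40077873-40078122 (plus) and Cyp2c70 at chr19:40175731-40175980 (minus).
Cyp2c55: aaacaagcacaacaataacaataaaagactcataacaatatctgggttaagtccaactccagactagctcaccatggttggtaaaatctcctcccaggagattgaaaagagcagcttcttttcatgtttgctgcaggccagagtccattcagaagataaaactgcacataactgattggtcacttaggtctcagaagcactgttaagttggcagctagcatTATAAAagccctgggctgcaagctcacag
Cyp2c37: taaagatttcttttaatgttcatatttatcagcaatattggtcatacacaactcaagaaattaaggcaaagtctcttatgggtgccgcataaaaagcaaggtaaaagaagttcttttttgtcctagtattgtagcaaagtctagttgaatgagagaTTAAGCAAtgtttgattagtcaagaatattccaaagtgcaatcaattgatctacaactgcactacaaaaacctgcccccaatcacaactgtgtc
Cyp2c50: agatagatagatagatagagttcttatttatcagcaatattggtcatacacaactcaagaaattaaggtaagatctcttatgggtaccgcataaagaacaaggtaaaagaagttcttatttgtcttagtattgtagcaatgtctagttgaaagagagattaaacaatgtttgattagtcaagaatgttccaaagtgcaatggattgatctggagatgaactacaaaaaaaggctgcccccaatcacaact
Cyp2c70: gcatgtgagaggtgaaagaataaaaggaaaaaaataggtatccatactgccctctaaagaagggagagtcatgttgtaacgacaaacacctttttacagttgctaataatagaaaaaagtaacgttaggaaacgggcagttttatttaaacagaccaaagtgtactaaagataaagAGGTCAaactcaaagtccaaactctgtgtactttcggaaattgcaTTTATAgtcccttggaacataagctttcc

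The Cyp2c55 promoter held TATAAA 29 bases before the start. That of Cyp2c70 held the reverse complement of TATAAA at the same distance and an AGGTCA 74 bases before the start. The Cyp2c37 promoter held a C/EBP match 94 bases before the start, and the Cyp2c50 promoter held none of the 4 motifs. The promoters of Cyp2c37 and Cyp2c50 were 84.6% identical, where the median over 78 pairs of 13 Cyp2c promoters was 54.97%. TATAAA was found in 4 of the 8 member promoters, AGGTCA in 3 (in Cyp2c39, which has 2 starts in the table, only at the start farther from the annotated gene), the C/EBP motif in 1 and the STAT5 motif in 0. Among 32851 mouse promoters the shares were 12.4%, 14%, 9.56% and 7.02%. A match is a run of letters and not a binding site.

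Cyp2c37, Cyp2c54 and Cyp2c50, the 3 neighbouring genes, were all higher with esculetin, and their groups did not overlap in TMM-normalized CPM. Relative to library totals without TMM scaling, the groups of Cyp2c37 and Cyp2c50 did overlap. Cyp2c37 had 5451 of 28825363 counts in vehicle replicate 1 and 6017 of 32883985 in esculetin replicate 1. Cyp2c50 had 20597 of 31889710 counts in vehicle replicate 2 and 21183 of 32883985 in esculetin replicate 1. Cyp2c37, an arachidonic acid hydroxylase, stood at 186, 139 and 102 CPM in vehicle replicates 1, 2 and 3 and at 187, 201 and 213 CPM in the esculetin replicates. Vehicle replicate 1 nearly reached the lowest esculetin library, while vehicle replicate 3 was far below it. The means were 142 ± 41.7 and 200.2 ± 12.8 CPM (SD, n = 3 each), 1.41 times as high with esculetin. The log2 fold change was 0.49 (SE 0.18), adjusted p = 0.315 in edgeR's quasi-likelihood test. Its unadjusted p stayed under 0.05 in 4 of the 6 fits with a library left out and not without vehicle replicate 2 (0.48) or esculetin replicate 3 (0.45).

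Cyp2c54, an epoxygenase of arachidonic and linoleic acid, stood at 214, 194 and 147 CPM in the vehicle and 245, 248 and 256 CPM in the esculetin libraries. The esculetin libraries lay close together and all were above the highest vehicle library. Its means of 185 ± 34.8 and 249.6 ± 5.77 CPM gave a log2 fold change of 0.43 (SE 0.12), adjusted p = 0.241 by edgeR's quasi-likelihood test, the smallest of the 10 members. Its unadjusted p stayed under 0.05 with any 1 of the 6 libraries left out, where its log2 fold change ranged from 0.29 to 0.55.

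Cyp2c50, also an epoxygenase, stood at 599, 632 and 547 CPM in the vehicle and 659, 693 and 676 CPM in the esculetin libraries. The step between the groups was small, and so was the spread within them. Its means were 593 ± 42.9 and 676 ± 17.2 CPM, 1.14 times as high with esculetin, and its log2 fold change was 0.19 (SE 0.08, edgeR adjusted p = 0.394). Its unadjusted p stayed under 0.05 in 1 of the 6 fits with a library left out, that without vehicle replicate 2, where the value ranged from 0.14 to 0.24 over the 6. It was also over 0.05 with scaling to total counts (0.17) and with the replicate block (0.19).

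**Figure D2:**
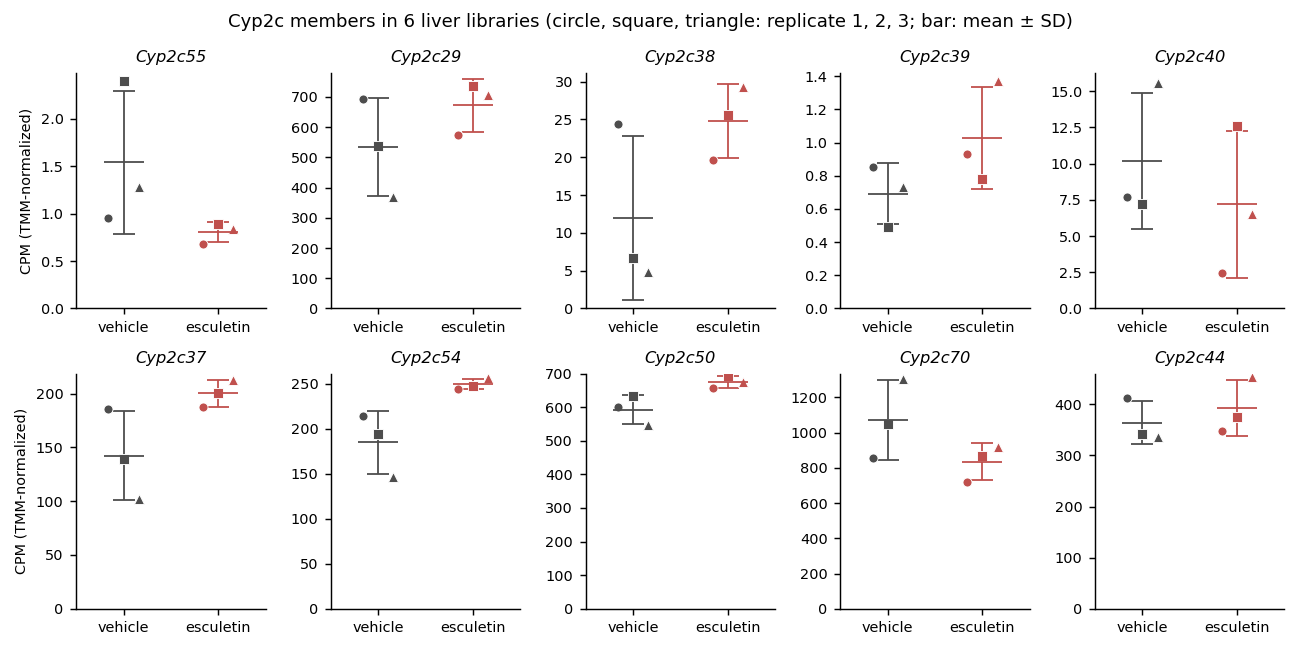
TMM-normalized CPM of each member in the 3 vehicle (grey) and 3 esculetin (red) libraries, with markers for replicates 1, 2 and 3 and bars for the mean ± SD, each panel starting at 0. Cyp2c37, Cyp2c54 and Cyp2c50 sit higher with esculetin without overlap, Cyp2c55 lower without overlap, and the other 6 members overlap.

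Cyp2c29, Cyp2c38 and Cyp2c39, the second group of close relatives, had higher means with esculetin but overlapping libraries. Cyp2c29, an epoxygenase that phenobarbital induces through CAR, stood at 694, 536 and 370 CPM in vehicle and 573, 735 and 708 CPM in esculetin libraries. Vehicle replicate 1 was above the lowest esculetin library. The means of 533 ± 162 and 672 ± 87.0 CPM gave a log2 fold change of 0.33 (SE 0.19), adjusted p = 0.545 by edgeR's quasi-likelihood test.

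Cyp2c38 stood at 24.4, 6.69 and 4.85 CPM in vehicle and 19.6, 25.5 and 29.3 CPM in esculetin libraries. Vehicle replicate 1 lay among the esculetin libraries and the other vehicle libraries lay well below, a 5.03-fold range within the vehicle group against 1.49-fold with esculetin. The log2 fold change was 1.05 (SE 0.48), adjusted p = 0.432 by edgeR's quasi-likelihood test. It was not called, but was called higher without vehicle replicate 1 (2.10, edgeR adjusted p = 0.00724) and, with all 6 libraries, by limma-voom (1.40, adjusted p = 0.254), with the replicate block (1.37, adjusted p = 0.398) and without the filter on low counts (1.06, adjusted p = 2.6e-05). Without vehicle replicate 3 it was 0.68 (adjusted p = 0.590).

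Cyp2c39, which hydroxylates retinoic acid, was near the lower limit of detection at 0.851, 0.491 and 0.729 CPM in vehicle and 0.933, 0.778 and 1.37 CPM in esculetin libraries. These values come from 16 to 46 counts per library and overlapped. The log2 fold change was 0.58 (SE 0.37, edgeR adjusted p = 0.589), and it was 0.31 without esculetin replicate 3 and 0.38 without vehicle replicate 2.

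Cyp2c55, an enzyme with a known high level in the intestine and inducible in liver through CAR and PXR, was the called member and was lower with esculetin. It had 28, 78 and 35 counts (0.953, 2.39 and 1.28 CPM) in vehicle and 22, 31 and 28 counts (0.684, 0.894 and 0.836 CPM) in esculetin libraries. The esculetin libraries lay just under the lowest vehicle library, and vehicle replicate 2 was far above the rest. The log2 fold change was -0.94 (SE 0.39), adjusted p = 0.383 by edgeR's quasi-likelihood test. Without vehicle replicate 2 it was -0.46 (edgeR adjusted p = 0.760) and was not called, and the call was also lost without any 1 of the esculetin libraries, at -0.84, -1.02 and -0.97 without replicates 1, 2 and 3. With all 6 libraries limma-voom did not call it either (-0.85, adjusted p = 0.437). Of 5 intestinal markers, Cdx1 and Cdx2 had no counts in any library, while Fabp2 stood at 120 to 186 CPM, Lgals4 at 4.20 to 8.85 CPM and Vil1 at 0.146 to 0.614 CPM, with overlapping groups, and their part in the Cyp2c55 values was not tested.

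Cyp2c70, which makes the muricholic acids of mouse bile, was the most abundant member and was lower with esculetin at p under 0.05, short of the fold change for a call. It stood at 854, 1050 and 1305 CPM in vehicle and 718, 865 and 919 CPM in esculetin libraries. Vehicle replicate 1 lay inside the esculetin range and vehicle replicate 3 was the highest of the 6. The means of 1070 ± 226 and 834 ± 104 CPM gave a log2 fold change of -0.36 (SE 0.15), adjusted p = 0.388 by edgeR's quasi-likelihood test. Its unadjusted p stayed under 0.05 in 2 of the 6 fits with a library left out, those without vehicle replicate 1 or esculetin replicate 3. The value ranged from -0.50 without vehicle replicate 1 to -0.19 without vehicle replicate 3.

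Cyp2c44, an epoxygenase encoded outside the cluster, stood at 413, 342 and 337 CPM in vehicle and 347, 376 and 454 CPM in esculetin libraries. The groups overlapped over most of their range, and its log2 fold change was 0.11 (SE 0.12, edgeR adjusted p = 0.764). Cyp2c40, an arachidonic acid hydroxylase, stood at 7.69, 7.24 and 15.6 CPM in vehicle and 2.46, 12.6 and 6.54 CPM in esculetin libraries. Its libraries differed more within groups than its group means, and its log2 fold change was -0.49 (SE 0.48, edgeR adjusted p = 0.738). Without esculetin replicate 2 it reached -1.17 and was called lower (edgeR adjusted p = 0.445), while without vehicle replicate 3 it was -0.05 and without esculetin replicate 1 it was -0.08.

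**Figure D3:**
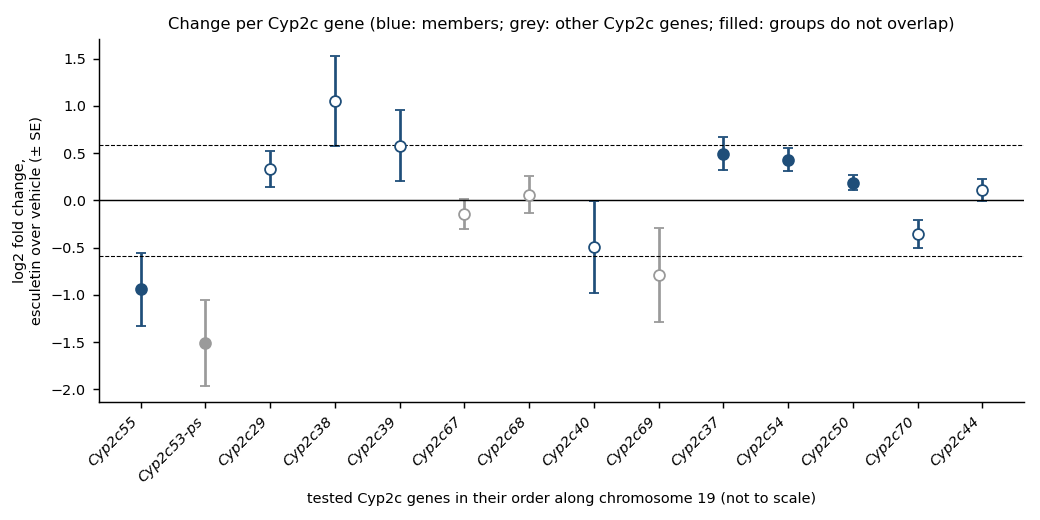
Fitted log2 fold change of esculetin over vehicle ± SE for the 14 Cyp2c genes tested, in their order along chromosome 19 (not to scale), with members in blue, other Cyp2c genes in grey, filled points where the groups do not overlap and dashed lines at a fold change of 1.5. The neighbours Cyp2c37, Cyp2c54 and Cyp2c50 lie between 0.19 and 0.49, and Cyp2c55 lies at -0.94.

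The same few libraries stood at the ends of the range in most members. Vehicle replicate 3 was the lowest of the 6 libraries in 6 members (Cyp2c29, Cyp2c37, Cyp2c38, Cyp2c44, Cyp2c50 and Cyp2c54) and the highest in Cyp2c40 and Cyp2c70. Esculetin replicate 3 was the highest in 5 members, and esculetin replicate 1 was the lowest in Cyp2c40, Cyp2c55 and Cyp2c70. The coefficient of variation was larger in vehicle than in esculetin libraries for 7 of 10 members, for example 18.8% against 2.31% for Cyp2c54 and 29.3% against 6.39% for Cyp2c37. Without vehicle replicate 3 the log2 fold change was 0.30 for Cyp2c37 (edgeR adjusted p = 0.406), 0.29 for Cyp2c54 (adjusted p = 0.273) and 0.13 for Cyp2c29 (adjusted p = 0.783). Without vehicle replicate 1 it was 0.73 for Cyp2c37 (edgeR adjusted p = 0.0714), which was then called higher, and 0.57 for Cyp2c29 (adjusted p = 0.264).

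Per kilobase of exon (RPKM, the CPM divided by exon length), Cyp2c70 was the most abundant member in vehicle at 389 ± 82.3 RPKM. Cyp2c50 at 161 ± 11.7, Cyp2c29 at 160 ± 48.8 and Cyp2c44 at 148 ± 17.2 RPKM followed, and each overlapped its neighbour in this order. Cyp2c37 at 71.6 ± 21.0 and Cyp2c54 at 45.6 ± 8.58 RPKM overlapped each other, as did Cyp2c38 at 4.08 ± 3.68 and Cyp2c40 at 3.11 ± 1.43 RPKM. Cyp2c55 at 0.618 ± 0.303 and Cyp2c39 at 0.242 ± 0.0642 RPKM were the lowest. In the esculetin group Cyp2c29 at 202 ± 26.1 RPKM came before Cyp2c50 at 184 ± 4.67 RPKM, and Cyp2c39 at 0.360 ± 0.108 before Cyp2c55 at 0.323 ± 0.0435 RPKM. The libraries of both pairs overlapped.

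The family's part of all counts differed between the groups by less than the libraries of a group differed. The 10 members held 0.305%, 0.297% and 0.278% of all counts in vehicle replicates 1, 2 and 3 and 0.269%, 0.314% and 0.328% in the esculetin replicates. The esculetin libraries spanned the vehicle ones on both sides. The means of 0.293 ± 0.0142% and 0.303 ± 0.0305% differed by a log2 ratio of 0.05 (exact two-sided permutation p = 0.6, where 0.1 is the smallest that 3 against 3 libraries allow). Of the counts of all 135 cytochrome P450 genes they held 13.8 ± 0.320% and 13.3 ± 0.819%, a log2 ratio of -0.05 (exact permutation p = 0.4).

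Within the family, 4 members took shares that did not overlap between the groups, a count with no value over all genes to set beside it. Cyp2c70 took 28.5%, 36.1% and 46.1% of the family counts in vehicle and 26.1%, 27.4% and 28.2% in esculetin libraries. The esculetin shares lay close together, just below the lowest vehicle share. The difference of the means was -9.69 percentage points, -5.09 without vehicle replicate 3 and -13.9 without vehicle replicate 1. With all 20 Cyp2c genes as the denominator the Cyp2c70 shares overlapped (-7.77 percentage points, exact permutation p = 0.2), and 3 members did not overlap. Cyp2c54 took 7.16%, 6.68% and 5.18% in vehicle and 8.89%, 7.85% and 7.85% in esculetin libraries, and Cyp2c37 took 6.20%, 4.78% and 3.62% and then 6.80%, 6.36% and 6.52%. Both were higher in every esculetin library than in any vehicle library. The Cyp2c55 share fell from a mean of 0.0531% to 0.0263%, also without overlap. Its difference of the means was -0.0268 percentage points, and -0.0122 without vehicle replicate 2. For these 4 members the exact two-sided permutation p was 0.1, the smallest the design allows, and 0.25 after Benjamini-Hochberg adjustment over the 10 members. No member could have gone under 0.05 in this test, whatever its shares. The shares of a library add up to the whole, so a lower share of Cyp2c70 raises the others.

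**Figure D4:**
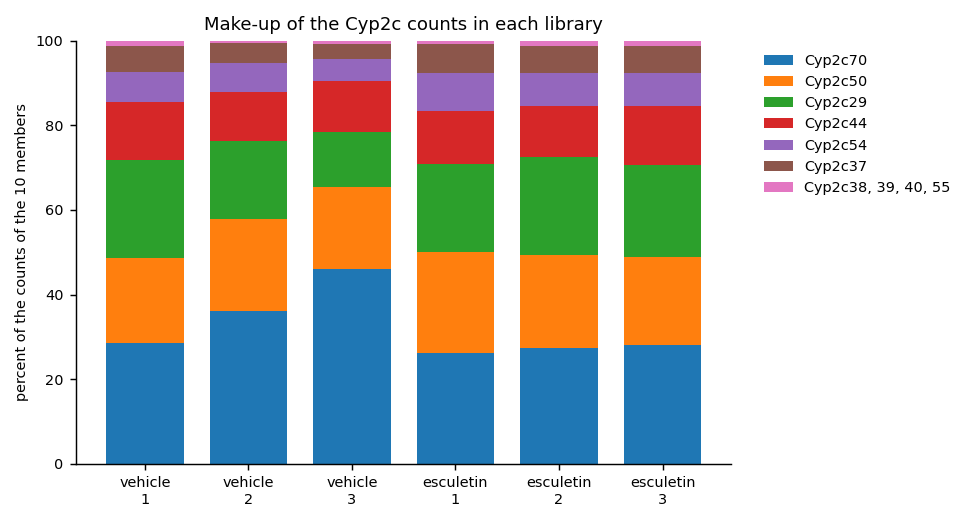
Percent of the counts of the 10 members taken by each member in each library, stacked to 100%, with the 4 least abundant members joined. Cyp2c70, Cyp2c50 and Cyp2c29 hold 71.7 to 78.5% in vehicle and 70.6 to 72.6% in esculetin libraries, and the Cyp2c70 part is largest in vehicle replicate 3 at 46.1%.

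The other share tests overlapped between groups. Cyp2c29 held 18.2 ± 5.06% in vehicle and 21.9 ± 1.25% with esculetin (exact permutation p = 0.3), Cyp2c50 held 20.4 ± 1.23% and 22.2 ± 1.62% (p = 0.2), and Cyp2c44 held 12.5 ± 1.13% and 12.8 ± 1.01% (p = 0.5). The adjusted p of the 6 overlapping members ran from 0.375 to 0.5.

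Of the 10 Cyp2c genes outside the list, 4 passed the filter. Cyp2c67 stood at 380, 301 and 363 CPM in vehicle and 238, 323 and 386 CPM in esculetin libraries, a log2 fold change of -0.14 (edgeR adjusted p = 0.778). Cyp2c68 stood at 283, 168 and 220 CPM and then 180, 241 and 279 CPM, a log2 fold change of 0.06 (edgeR adjusted p = 0.937). Both overlapped between groups over most of their range. Cyp2c69 stood between 0.777 and 3.76 CPM, with a log2 fold change of -0.79 (edgeR adjusted p = 0.574). The pseudogene Cyp2c53-ps was called lower on 8 to 39 counts per library, at 0.579, 1.20 and 1.39 CPM in vehicle and 0.404, 0.461 and 0.239 CPM in esculetin libraries (log2 fold change -1.51, SE 0.45, edgeR adjusted p = 0.252). Cyp2c65 had 0 counts in every library, which allows up to 3 counts or 0.0865 to 0.109 CPM per library by counting error alone. Cyp2c66 was at 0.0729 CPM in vehicle replicate 3 and at 0 in the other libraries. The pseudogene Cyp2c52-ps had 0 to 6 counts per library, and Cyp2c71-ps, Cyp2c72-ps and Cyp2c73-ps had 0 in all.

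Among 15 genes for electron transfer and epoxide handling, 12 were tested and none was called, but 4 had an edgeR p under 0.05, all higher with esculetin. Por, which passes electrons to every microsomal P450, stood at 232, 184 and 195 CPM in vehicle and 292, 273 and 304 CPM in esculetin libraries. All esculetin libraries were above all vehicle libraries, and the log2 fold change was 0.51 (SE 0.10, edgeR adjusted p = 0.132). Pgrmc1, a heme-binding partner of P450 enzymes, had a log2 fold change of 0.39 (SE 0.08, edgeR adjusted p = 0.152). The others, chosen after their values were seen, were Cyb5a at 0.32 (edgeR adjusted p = 0.172) and Ephx1, the microsomal epoxide hydrolase, at 0.40 (adjusted p = 0.398, groups overlapping). The median of the 12 was 0.08 beside -0.01 over all genes.

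Of 18 regulators described for Cyp2c genes, 17 were tested and 1 was called, Cebpb, higher with esculetin. Cebpb, the C/EBP factor of the acute phase, stood at 24.9, 35.6 and 30.2 CPM in vehicle and 53.7, 43.4 and 40.3 CPM in esculetin libraries (log2 fold change 0.60, SE 0.14, edgeR adjusted p = 0.175). PXR (Nr1i2) stood at 76.4, 78.7 and 73.7 CPM and then 93.9, 90.3 and 97.8 CPM, a log2 fold change of 0.30 (edgeR adjusted p = 0.172). CAR (Nr1i3) stood at 26.9, 23.8 and 17.4 CPM and then 27.6, 29.6 and 31.7 CPM, a log2 fold change of 0.39 (edgeR adjusted p = 0.345). Neither receptor overlapped between groups in TMM-normalized CPM, and neither reached the fold change for a call. Relative to library totals without TMM scaling, the groups of Nr1i3 did overlap. It had 789 of 28825363 counts in vehicle replicate 1 and 889 of 32883985 in esculetin replicate 1. The fourth regulator with an unadjusted p under 0.05, named after its values were seen, was the glucocorticoid receptor Nr3c1, lower without overlap at -0.17 (edgeR adjusted p = 0.399). The median of the 17 was 0.00.

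Of 11 genes known as targets of CAR and PXR, 6 were tested. Cyp2b10, the usual readout of CAR, had 4, 8 and 2 counts in vehicle and 31, 48 and 24 counts in esculetin libraries (0.136, 0.246 and 0.0729 CPM and then 0.964, 1.38 and 0.717 CPM). Cyp2b9 had 6, 0 and 4 counts in vehicle and 50, 22 and 88 counts in esculetin libraries. Both met the call rule as higher, but both had only 0 to 8 counts per vehicle library and passed the filter on low counts only through the esculetin libraries, so no fold change is given and their calls are not counted as support. Cyp3a11, the usual readout of PXR, stood at 846, 740 and 459 CPM and then 342, 605 and 907 CPM, with overlapping groups and a log2 fold change of -0.14 (edgeR adjusted p = 0.903). The other 3 genes tested had an unadjusted p under 0.05 and were higher: Cyp3a13 (0.44, edgeR adjusted p = 0.265), Cyp3a25 (0.38, adjusted p = 0.265) and Cyp3a59 (0.52, adjusted p = 0.340), each with overlapping groups.

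**Figure D5:**
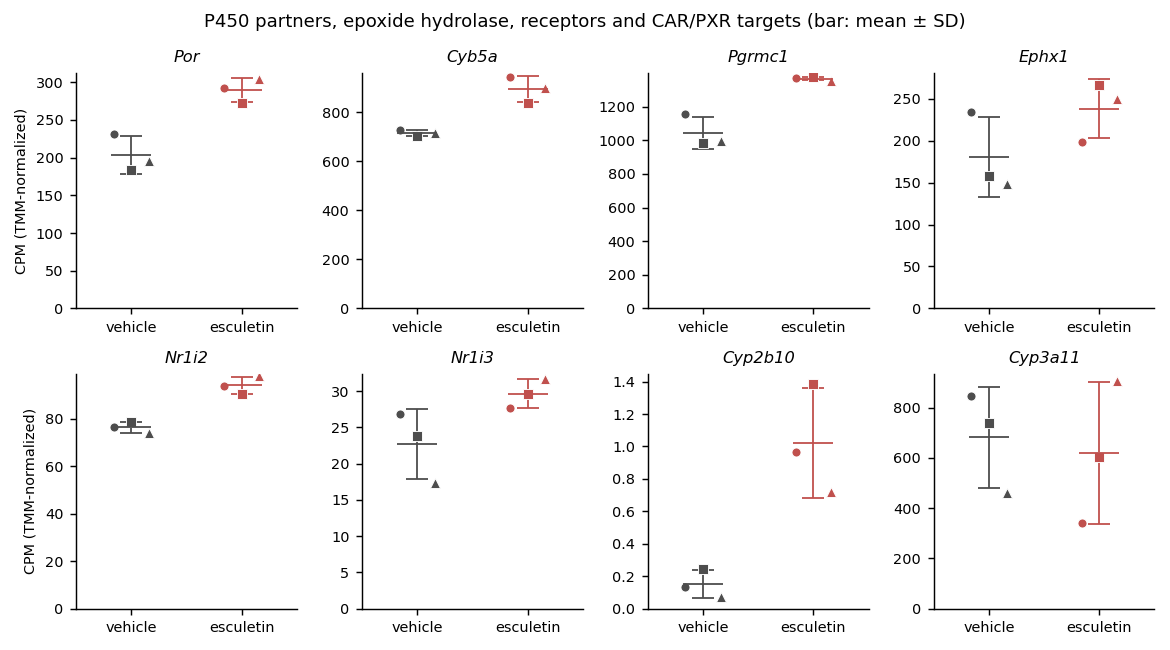
TMM-normalized CPM of 4 partner genes (Por, Cyb5a, Pgrmc1, Ephx1), the receptors Nr1i2 and Nr1i3 and their targets Cyp2b10 and Cyp3a11 in each library, with bars for the mean ± SD and each panel starting at 0. Por, Cyb5a, Pgrmc1, Nr1i2 and Nr1i3 do not overlap between groups, Ephx1 and Cyp3a11 do, and Cyp2b10 is near 0 in vehicle.

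Of 10 markers of pericentral hepatocytes 1 was called, Axin2, a Wnt target, lower with a log2 fold change of -0.87 (edgeR adjusted p = 0.172), and their median was -0.02. Lgr5 at -0.48 (edgeR adjusted p = 0.383) also had an unadjusted p under 0.05, while 4 of the 10 had positive values. Their summed level was 11131 to 12285 CPM in vehicle and 11967 to 13726 CPM in esculetin libraries. Most of this was Cyp2e1, at 6959 to 7802 and 7522 to 9277 CPM. Of 10 periportal markers none was called, and Cdh1 at -0.40 (edgeR adjusted p = 0.315) and Gls2 at 0.24 (adjusted p = 0.462) had the smallest p. The 6 Kupffer cell markers summed to 261 to 356 CPM in vehicle and 272 to 280 CPM in esculetin libraries, with none called, and Timd4 at -0.24 (edgeR adjusted p = 0.553) and Vsig4 at -0.11 (adjusted p = 0.794) had the smallest p. The part of these markers in the Cyp2c values was not tested.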

How the data were processed

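Gene counts of the 6 liver libraries were used as the authors deposited them: raw counts per gene, made per the labels with HISAT2 2.2.1 and featureCounts. The annotation release, strand setting and treatment of multimapping reads are not given in the sources used here. Gene names came from GENCODE vM39 (GRCm39), which held 54749 of 55357 identifiers. The members and all lists were chosen with earlier results of these data known. Named were all members, the other Cyp2c genes, and of each further list the called genes or, with none called, the 2 of smallest p, and always Por, Nr1i2, Nr1i3, Cyp2b10 and Cyp3a11.

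Counts were filtered (filterByExpr), TMM-scaled and fitted over all genes with edgeR 4.0.16 in R 4.3.3, without covariates, and this step was tested on simulated data. DESeq2 1.42.0 and limma-voom (limma 3.58.1), other scalings and filters, a replicate block and each library left out were alternatives. Family and member shares were compared with exact permutation tests. Coding sequences were aligned with edlib. Intervals and limits on counts cover counting error only.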

Additional observations from a re-analysis of the deposited data

How the results depend on the processing

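With 1 member called, the count was 2 without the filter on low counts (Cyp2c38 and Cyp2c55), 5 with no fold change threshold, 0 with a fold change over 2, and 0 to 3 with 1 library left out. DESeq2, either other scaling and a minimum of 10 counts in every library each called 1 member, as did limma-voom, where it was Cyp2c38 (log2 1.40, adjusted p = 0.254) while Cyp2c55 was not called (log2 -0.85, adjusted p = 0.437). Members with an adjusted p under 0.05 numbered 4 without the filter and 0 to 1 with 1 library left out, against 0. Without the filter these were Cyp2c37 (edgeR adjusted p = 0.00074), Cyp2c38 (2.6e-05), Cyp2c54 (0.0018) and Cyp2c70 (0.029). Without vehicle replicate 1 it was Cyp2c38 (edgeR adjusted p = 0.0072). The DESeq2 adjusted p of Cyp2c54 was 0.053. Over all genes, calls numbered 776 without the filter against 452, and adjusted p under 0.05 was met by 477 genes without it, by 193 in DESeq2, by 15 with the replicate block and by 2 to 45 with 1 library left out, against 6. The cause was not tested. The family log2 ratio was -0.051 as a percent of P450 counts and ranged from -0.0095 to 0.13 with 1 library left out. Members whose shares did not overlap numbered 3 with all Cyp2c genes as the denominator, against 4. They numbered 4 to 7 with 1 library left out. Dropping a library cannot make separate groups overlap, so that count could not fall below 4. The log2 fold change of Cyp2c44 ranged from -0.0066 to 0.21, and its difference in share from -0.21 to 0.98 percentage points, with -0.029 without vehicle replicate 2.

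With the replicate block, 2 members were called (Cyp2c38 and Cyp2c55). Same-numbered libraries did not deviate together (correlations of -0.069, -0.011 and 0.0027), and a shared number was not read as a pair. With 3 pools a group, the exact tests cannot go below p = 0.1, and Cyp2c39 and Cyp2c55 rest on 16 to 78 counts per library.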

Other observations

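Beside Cyp2c70, 7 enzymes of bile acid synthesis and conjugation were tested and 1 was called. Cyp7b1, the oxysterol hydroxylase of the acidic pathway, stood at 270, 460 and 517 CPM in vehicle and 258, 285 and 157 CPM in esculetin libraries, lower with a log2 fold change of -0.83 (SE 0.25, edgeR adjusted p = 0.255). As with Cyp2c70, vehicle replicate 1 was the lowest vehicle library and overlapped the esculetin range. The median of the 7 was 0.07.

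Of the retinoic acid hydroxylases beside Cyp2c39, 2 of 3 were tested. Cyp26b1 was called higher, at 3.98, 3.44 and 2.84 CPM in vehicle and 3.48, 9.80 and 5.91 CPM in esculetin libraries (log2 fold change 0.90, SE 0.33, edgeR adjusted p = 0.325), with overlapping groups.

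Among markers of other liver cells, Spp1 of cholangiocytes was called lower (log2 fold change -0.75, edgeR adjusted p = 0.309), while the other 4 cholangiocyte markers had positive values that were not called (list median 0.24). The summed cholangiocyte markers were 39.5 to 80.4 CPM in vehicle and 30.3 to 45.7 CPM in esculetin libraries, mostly Spp1 at 34.7 to 75.5 and 23.7 to 39.1 CPM. Des of stellate cells was called higher (0.69, edgeR adjusted p = 0.273), and the other 4 stellate markers were between -0.37 and 0.05 and not called (list median -0.10). Cd79a of B cells was called higher on 8 to 42 counts per library (1.12, edgeR adjusted p = 0.398), while Ptprc of leukocytes had a negative value without overlap between groups (-0.30, adjusted p = 0.321). Of 5 endothelial markers none was called, with Clec4g at 0.18 (edgeR adjusted p = 0.587) and Lyve1 at -0.24 (adjusted p = 0.625) having the smallest p. Of the 5 pancreatic acinar markers 4 had 0 counts in all libraries and Cela1 was at -0.12 (edgeR adjusted p = 0.848). Of the intestinal markers Vil1 at -0.62 (edgeR adjusted p = 0.711) and Fabp2 at 0.14 (adjusted p = 0.768), and of the adipocyte markers Cidec at -0.47 (adjusted p = 0.577), were not called.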
